A study of Mus musculus with 4 samples.

Results

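Imprinted genes are read from 1 parental copy, and 10 of them with links to the growth and dormancy of blood stem cells were followed in long-term blood stem cells (LT-HSCs) of mice with and without Fam122a. The 10 genes were H19, Igf2, Meg3, Rian, Mirg, Dlk1, Ndn, Peg3, Grb10 and Igf2r. They were chosen by symbol in the GRCm38 annotation, with earlier results of these data known, and all 10 were found among 51912 Ensembl genes in the files. Expression had been measured in 2 Fam122a KO and 2 WT libraries of sorted LT-HSCs (LSK CD34- FLk2-) from C57BL/6 mice of 8 to 12 weeks, with cells of 3 animals mixed for each library. Both genotypes shared strain, age and sort gate. How and in which cells Fam122a was deleted is not given in the sources used here. The comparison addresses what changes in LT-HSC transcripts without Fam122a, which is known to encode an inhibitor of the phosphatase PP2A.

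The imprinted genes form a growth control circuit in mouse. IGF2 is a growth factor that signals through the receptor encoded by Igf1r, while Igf2r encodes a receptor that takes IGF2 up for degradation and Grb10 an adaptor that dampens insulin and IGF signalling. H19 is a noncoding RNA next to Igf2, expressed from the other parental copy, and loss of its maternal control region in mouse is known to push LT-HSCs out of quiescence. Dlk1, Meg3, Rian and Mirg lie in 1 imprinted cluster, whose maternally expressed noncoding RNAs are known in mouse LT-HSCs for holding PI3K and mTOR signalling down. Reads were not assigned to parental copies, so the values are sums over both.

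The noncoding members carry small RNAs, and 23 miRNA genes were annotated inside H19, Igf2, Meg3, Rian and Mirg. Of these, 21 had a mature sequence in the RefSeq table (GRCm38.p6), which gave 39 mature sequences with 38 distinct seeds. The sequences of H19 and Rian are shown because miR-675 of H19 is known in mouse to act on Igf1r, and because Rian is the member that differed most between the genotypes. The pair from Mirg is shown because it was the only pair among the 39 with a common seed. Capitals mark the seed, bases 2 to 8.
mmu-miR-675-5p (H19): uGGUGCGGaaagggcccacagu
mmu-miR-675-3p (H19): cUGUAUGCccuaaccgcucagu
mmu-miR-341-5p (Rian): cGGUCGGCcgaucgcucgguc
mmu-miR-341-3p (Rian): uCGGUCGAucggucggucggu
mmu-miR-370-5p (Rian): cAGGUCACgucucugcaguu
mmu-miR-370-3p (Rian): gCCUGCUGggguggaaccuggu
mmu-miR-1188-5p (Rian): uGGUGUGAgguugggccagga
mmu-miR-1188-3p (Rian): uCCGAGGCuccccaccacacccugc
mmu-miR-453 (Mirg): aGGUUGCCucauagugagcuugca
mmu-miR-496a-5p (Mirg): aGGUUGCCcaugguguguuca
Each of these miRNA genes was listed at 0 in all 4 libraries, as were the other small RNA genes inside the members, 41 in all with lengths of 66 to 120 bp. Across the annotation 2203 of 2207 miRNA genes were listed at 0 in every library, so the zeros describe what such libraries record of short genes and say nothing of the mature miRNAs.

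WT replicate 2 is given separately throughout, because its RNA content was unlike that of the remaining libraries. Its median over 83 ribosomal protein genes was 13.02 FPKM (fragments per kilobase of transcript, scaled to library depth), against 312 to 468 FPKM in the other 3, and 53.9% of its summed FPKM lay in unannotated MSTRG loci, against 1.74% and 1.81% in KO and 9.14% in WT replicate 1. The steps between low FPKM values implied 6820000 and 5920000 fragments in KO, and 4270000 and 2520000 in WT replicates 1 and 2. Fam122a was listed at 0 in both KO libraries, and at 18.4 and 7.46 FPKM in WT. Of 15 LT-HSC markers, at most 3 were at 0 in any library, and these were Procr, Ly6a and Tal1 in WT replicate 2. Markers of other blood cells were abundant: 11 neutrophil genes summed to 77707.5 and 67425 FPKM in KO and 176980 FPKM in WT replicate 1, and 12 B cell genes to 4572 and 7352 FPKM in KO and 5888 FPKM in WT replicate 1. All 11 neutrophil genes read below WT replicate 1 in both KO libraries, beside 43% of all genes tested, with a median log2 difference of -0.84. Within the B cell list 9 of 12 genes read above WT replicate 1 in both KO libraries, beside 42.5% of all genes tested. The median log2 difference of the B cell list was 2.24, with 1 gene called higher by limma and 8 of 12 higher at an unadjusted p under 0.05. The 12 erythroid genes summed to 60280 and 80435 FPKM in KO and 52258 FPKM in WT replicate 1, with 11 of 12 above 0, a median log2 difference of 0.59 and 0 called by limma or under an unadjusted p of 0.05. Over all genes tested 49.9% lay above 0, and the median was -0.0021. The 12 stromal and osteolineage genes summed to 28.2 and 24.8 FPKM in KO and 76.6 FPKM in WT replicate 1. Of these 12, 6 were tested, with 3 above 0, 3 below 0 and a median log2 difference of -0.26. Limma called 1 of them lower, and 2 were higher and 1 lower at an unadjusted p under 0.05. Of 9 endothelial genes 7 were tested, with 3 above 0, 4 below 0 and a median of -0.62. Limma called 0 of these, and 4 were lower at an unadjusted p under 0.05. Of all 15867 genes tested, limma called 0.454% higher and 9.37% lower, with 2091 higher and 3209 lower at an unadjusted p under 0.05. The part that such cells play in the results was not tested, and in bulk RNA fewer cells of a type cannot be told apart from less RNA per cell.

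Most of the 10 genes were expressed at low levels in these cells. The summed level of the 10 was 20.0 and 29.7 FPKM in the KO libraries and 31.9 FPKM in WT replicate 1, and 116.8 FPKM in WT replicate 2. In the KO libraries 5 and 7 of the genes lay under 1 FPKM, as did 6 in WT replicate 1 and 5 in WT replicate 2. H19, Meg3, Mirg and Peg3 were under 1 FPKM in each of KO 1, KO 2 and WT replicate 1. For scale, the median protein-coding gene was at 2.16 and 2.37 FPKM in KO and at 3.995 FPKM in WT replicate 1.

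**Figure D1:**
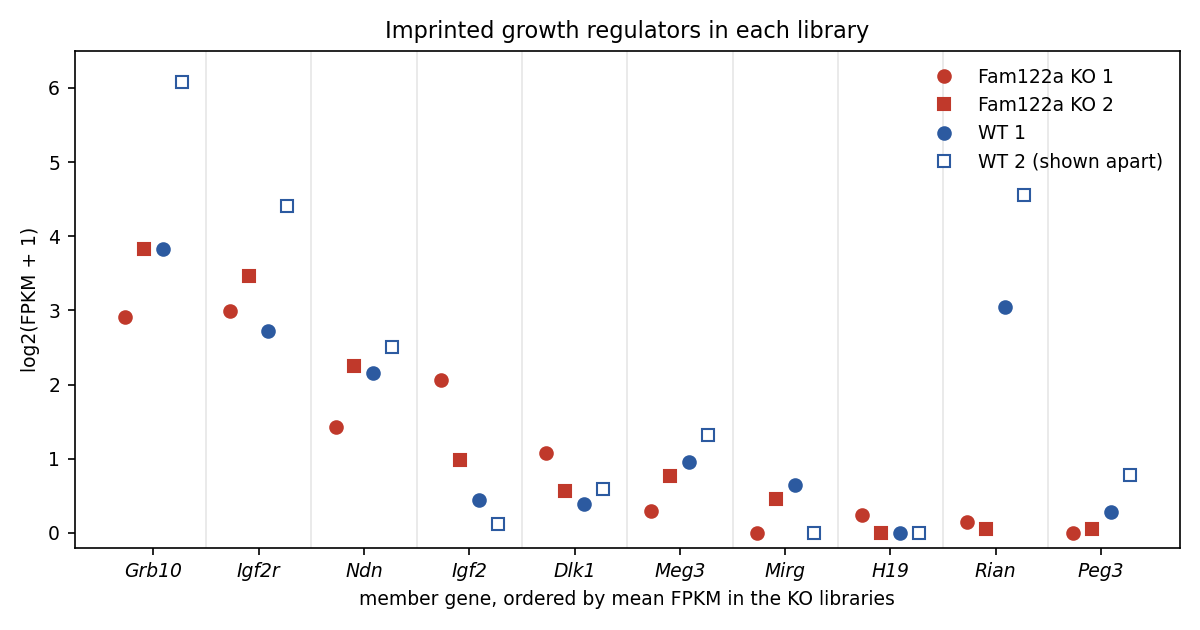
Level of each imprinted gene as log2(FPKM + 1) on the vertical axis, 1 point per library, with genes ordered by their mean in the KO libraries. Red points are Fam122a KO libraries, filled blue points WT replicate 1 and open blue squares WT replicate 2. Rian reads 0.11 and 0.04 FPKM in KO and 7.24 FPKM in WT replicate 1. For Grb10 and Ndn, WT replicate 1 lies within the range of the KO pair, and for Igf2r it lies below both KO libraries.

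The order of levels in the KO libraries ran from Grb10 and Igf2r, through Ndn, Igf2, Dlk1, Meg3, Mirg and H19, to Rian and Peg3. Only 1 step in this order exceeded the spread of the KO pair, that between Igf2r (lowest 6.97 FPKM) and Ndn (highest 3.75 FPKM). All other neighbours had overlapping ranges. Rian ranked 8 in both KO libraries, counted from the highest, and 2 in both WT libraries. Igf2 ranked 3 and 4 in KO, 7 in WT replicate 1 and 8 in WT replicate 2.

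Both KO libraries were set against WT replicate 1 with limma on log2(FPKM + 1), over 15867 genes with a mean of at least 1 FPKM in these 3 libraries. With a single WT library the spread comes from the KO pair alone, and WT is assumed to vary like it. Nothing in the labels makes the libraries more than separate pools, so p-values measure the spread between pools, part of which may be technical. At a Benjamini-Hochberg adjusted p of 0.05, 72 genes (0.454%) were higher and 1487 (9.37%) lower in KO. Of the 10 imprinted genes 5 met the filter (Rian, Igf2, Ndn, Grb10 and Igf2r), and 1 of these, Rian, was called, as lower in KO. Of these 5, Igf2 met it through KO replicate 1 and Rian through WT alone, and a gene that is kept for its level in 1 group has to differ. Fitted on all 4 libraries, limma called 0 of 20434 genes, and Fam122a itself did not pass (adjusted p = 0.309). Not being called in that fit therefore sets no single gene apart.

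Among the ligands, Igf2 was at 3.17 and 0.98 FPKM in KO, 0.36 FPKM in WT replicate 1 and 0.09 FPKM in WT replicate 2. Both KO libraries lay above both WT libraries, and KO replicate 1 was over 3 FPKM while the other 3 libraries were under 1 FPKM. The log2 difference from WT replicate 1 was 1.08 (SE 0.66) and did not pass (limma adjusted p = 0.366), since the KO pair itself differed by 1.07 on the same scale. If every fragment had come from the longest annotated transcript of 4722 bp, the values would stand for at most 96.7 and 26.0 fragments in KO, 6.88 in WT replicate 1 and 1.02 in WT replicate 2. Igf2 lies on chromosome 7 of GRCm38, from 142650766 to 142666816 on the minus strand. Its antisense neighbour Igf2os, which the unstranded kit cannot separate from it, was listed at 0 in both KO libraries and in WT replicate 1, and at 0.17 FPKM in WT replicate 2.

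Dlk1, which encodes a NOTCH-related membrane protein and is paternally expressed, was low in every library. It was at 1.11 and 0.48 FPKM in KO, against 0.31 FPKM in WT replicate 1 and 0.51 FPKM in WT replicate 2. Both KO libraries were above WT replicate 1, but WT replicate 2 lay between them. Its mean was under the filter, and without a filter the log2 difference of 0.43 from WT replicate 1 did not pass (limma adjusted p = 0.5). The KO pair differed by 0.51. Dlk1 is on chromosome 12 from 109452823 to 109463336, plus strand, and at most 33.3 and 12.5 fragments in KO and 5.83 in WT replicate 1 stand behind these values.

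H19 was close to undetected. It was listed at 0.18 and 0 FPKM in KO and at 0 in both WT libraries. The single value above 0 corresponds to at most 2.5 fragments, on a longest transcript of 2286 bp. On that transcript 3 fragments correspond to 0.22 FPKM in KO replicate 1, 0.25 FPKM in KO replicate 2, 0.34 FPKM in WT replicate 1 and 0.58 FPKM in WT replicate 2, for counting error only. Levels under these rest on fewer than 3 fragments, as the value of KO replicate 1 does. Between 2 and 3 of 83 ribosomal protein genes were also listed at 0 in each library. These were picked by symbol alone, so their zeros do not tell whether a 0 in these files is an absence. The gene lies on chromosome 7 from 142575529 to 142578143, minus strand, with 7 annotated transcripts.

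Of the receptors, Igf2r met the filter and did not pass. It was at 6.97 and 10.02 FPKM in KO (mean 8.5 ± 2.16, SD, n = 2), against 5.58 FPKM in WT replicate 1 and 20.3 FPKM in WT replicate 2. Both KO libraries were above the first WT library and below the second. The log2 difference from WT replicate 1 was 0.51 (SE 0.34, limma adjusted p = 0.395), whereas against WT replicate 2 it was -1.19 and with all 4 libraries -0.34. Igf2r covers chromosome 17 from 12682406 to 12769664 on the minus strand, 9.37 times its exonic length. The antisense noncoding RNA Airn, which silences Igf2r on the paternal copy in mouse, overlaps it and was at 0.68 and 2.16 FPKM in KO, 3.23 FPKM in WT replicate 1 and 17.4 FPKM in WT replicate 2. Without strand, reads in the shared stretch cannot be divided between Igf2r and Airn.

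Grb10 was the highest member in 3 of the 4 libraries. It was at 6.5 and 13.3 FPKM in KO (mean 9.88 ± 4.78, SD, n = 2), against 13.2 FPKM in WT replicate 1 and 66.5 FPKM in WT replicate 2. WT replicate 1 fell inside the range of the KO pair. The log2 difference was -0.46 (SE 0.59, limma adjusted p = 0.626) and the KO pair differed by 0.93. Grb10 covers chromosome 11 from 11930508 to 12038683, minus strand, 11.9 times its exonic length.

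Ndn encodes necdin, which restrains cell growth and is known in mouse for keeping haematopoietic stem cells dormant under stress. It was at 1.70 and 3.75 FPKM in KO (mean 2.73 ± 1.45, SD, n = 2), against 3.46 FPKM in WT replicate 1 and 4.70 FPKM in WT replicate 2. WT replicate 1 again lay inside the KO range. The log2 difference was -0.32 (SE 0.51, limma adjusted p = 0.695), and turned to 0.48 after quantile normalization. Ndn has 1 exon of 3694 bp (chromosome 7, 62346569 to 62350262, plus strand), so its fragments can be estimated best: 39.9 and 76.6 in KO, 51.0 in WT replicate 1 and 41.2 in WT replicate 2. It lies inside the lincRNA gene Gm32061 of the opposite strand, at 0 and 0.05 FPKM in KO, 0.83 FPKM in WT replicate 1 and 8.09 FPKM in WT replicate 2.

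Peg3, a paternally expressed zinc finger gene of chromosome 7 (6703892 to 6730431, minus strand), was listed at 0 and 0.04 FPKM in KO, 0.22 FPKM in WT replicate 1 and 0.72 FPKM in WT replicate 2. Both KO libraries were below both WT libraries, with at most 2 fragments in KO replicate 2 and 7.94 in WT replicate 1. Its level was under the filter, and without a filter the log2 difference of -0.26 did not pass (limma adjusted p = 0.102).

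The maternally expressed noncoding RNAs of chromosome 12 read below WT replicate 1 in both KO libraries, and of the 3 only Rian met the filter. Rian was at 0.11 and 0.04 FPKM in KO, against 7.24 FPKM in WT replicate 1 and 22.6 FPKM in WT replicate 2. The groups did not overlap, and the KO values rest on at most 5.88 and 1.86 fragments where those of WT replicates 1 and 2 rest on at most 242.5 and 448. Rian fell by 2.94 on the log2 scale relative to WT replicate 1 (SE 0.09, limma adjusted p = 0.0189), and the value relative to WT replicate 2 was -4.45. With all 4 libraries the difference was -3.70 (SE 1.02, limma adjusted p = 0.317), and with a pseudocount of 0.1 FPKM it was -5.42 (limma adjusted p = 0.0790), so neither setting called it. A filter of 1 FPKM in 2 libraries left it untested. The small SE reflects 2 KO values close to 0, where log2(FPKM + 1) leaves little room for spread.

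Rian shared this pattern with many other genes. Of 11575 genes at 5 FPKM or more in WT replicate 1, 725 (6.26%) were under 0.5 FPKM in both KO libraries, limits that were chosen after the values of Rian were seen. The share was 4% of 4274 genes whose genomic span was under 4 times their exonic length, the class of Rian, 3.04% of 5100 genes with a ratio of 4 to 16, and 18.1% of 2193 genes whose span was over 16 times. Protein-coding genes of the short class had medians of 0.78 and 0.83 FPKM in KO, 1.22 FPKM in WT replicate 1 and 0.72 FPKM in WT replicate 2, while those of the long class had medians of 0.92 and 1.02 FPKM in KO, 7.22 FPKM in WT replicate 1 and 27.6 FPKM in WT replicate 2. Like Rian, the long class was lower in both KO libraries than in WT replicate 1 and highest in WT replicate 2, but the short class, to which Rian belongs by its ratio, was lowest in WT replicate 2. Rian spans 57777 bp (chromosome 12, 109603940 to 109661716, plus strand) with 18234 exonic bp over 20 annotated transcripts, the longest of 8089 bp. The part that this relation to span plays in the value of Rian was not tested.

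Meg3 and Mirg flank Rian in the cluster and stayed under the filter. Meg3 was at 0.23 and 0.70 FPKM in KO, against 0.95 FPKM in WT replicate 1 and 1.5 FPKM in WT replicate 2. Both KO libraries were below both WT libraries, with at most 22.4 and 59.3 fragments in KO and 58.0 in WT replicate 1. Its log2 difference of -0.43 from WT replicate 1 did not pass without a filter (limma adjusted p = 0.468) and is smaller than the 0.47 between the KO libraries. Mirg was listed at 0 and 0.38 FPKM in KO, 0.56 FPKM in WT replicate 1 and 0 in WT replicate 2, at most 8.55 fragments in any of them (-0.41, limma adjusted p = 0.485 without a filter). The 2 genes lie on the plus strand of chromosome 12, Meg3 from 109541001 to 109571726 and Mirg from 109729764 to 109749460.

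**Figure D2:**
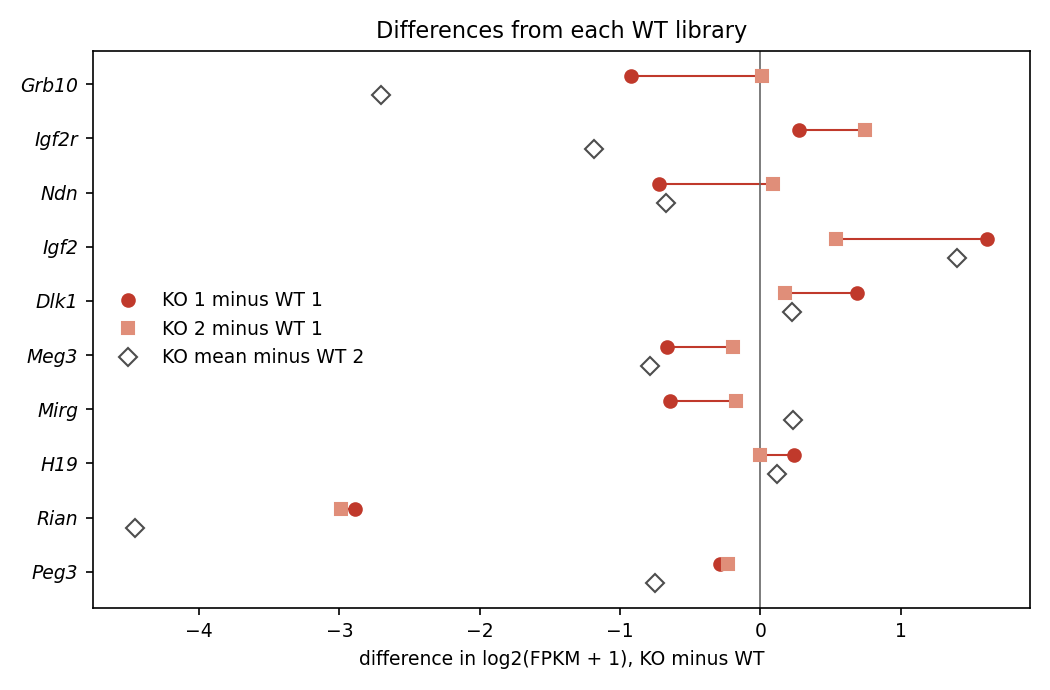
Differences in log2(FPKM + 1) on the horizontal axis, KO minus WT, for each imprinted gene. Filled points are KO replicates 1 and 2 minus WT replicate 1, joined by a line, and open diamonds are the KO mean minus WT replicate 2. Rian lies near -3 for both KO libraries, Igf2, Dlk1 and Igf2r lie above 0 for both, and Igf2r and Grb10 are far lower against WT replicate 2.

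Both KO libraries lay above WT replicate 1 for 3 of the 10 genes (Igf2, Dlk1 and Igf2r) and below it for 4 (Meg3, Rian, Mirg and Peg3), with WT replicate 1 inside or at the edge of the KO range for H19, Ndn and Grb10. Of the 5 that met the filter, 2 lay above and 1 below, beside 42.5% above and 43% below among all genes tested. Against WT replicate 2, both KO libraries were above for 1 gene, Igf2, and below for 6. Of the 5 that met the filter, 1 lay above WT replicate 2 and 4 below, beside 58.5% above and 36.3% below among all genes tested. The side was the same against both WT libraries for 4 genes, Igf2 above and Meg3, Rian and Peg3 below. Of the 5 that met the filter, only Igf2 lay above both WT libraries and only Rian below both. Among all genes tested 35.4% lay above both and 26.3% below both.

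The imprinted neighbours, chosen for their position, were read to see how single genes of a domain stood. In the Peg3 domain Usp29, a deubiquitinase gene that starts beside Peg3, was at 0.09 and 0 FPKM in KO, 83.4 FPKM in WT replicate 1 and 74.8 FPKM in WT replicate 2. Zim1, on the other side of Peg3, was at 0 in all 4 libraries. Beside Ndn, Snrpn was at 0.69 and 2.54 FPKM in KO, 28.5 FPKM in WT replicate 1 and 83.0 FPKM in WT replicate 2 and did not pass (limma adjusted p = 0.124), whereas the intronless Magel2, Mkrn3 and Peg12 stayed under 1 FPKM in KO and WT replicate 1. Ube3a of the same domain was at 53.6 and 52.1 FPKM in KO, 51.3 FPKM in WT replicate 1 and 70.6 FPKM in WT replicate 2. Next to Rian, Rtl1 was at 0 in both KO libraries, 0.23 FPKM in WT replicate 1 and 0.06 FPKM in WT replicate 2. Dio3, which lies beyond Mirg in the same domain, was at 0.08 FPKM in KO replicate 1 and at 0 elsewhere. Beside Igf2, Ins2 was listed at 0 in both KO libraries, 2.13 FPKM in WT replicate 1 and 14.6 FPKM in WT replicate 2. Ddc next to Grb10 was at 2.73 and 1.72 FPKM in KO, 2.93 FPKM in WT replicate 1 and 35.8 FPKM in WT replicate 2. Near Igf2r, Slc22a3 was at 9.77 and 8.31 FPKM in KO, 14.45 FPKM in WT replicate 1 and 5.22 FPKM in WT replicate 2.

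**Figure D3:**
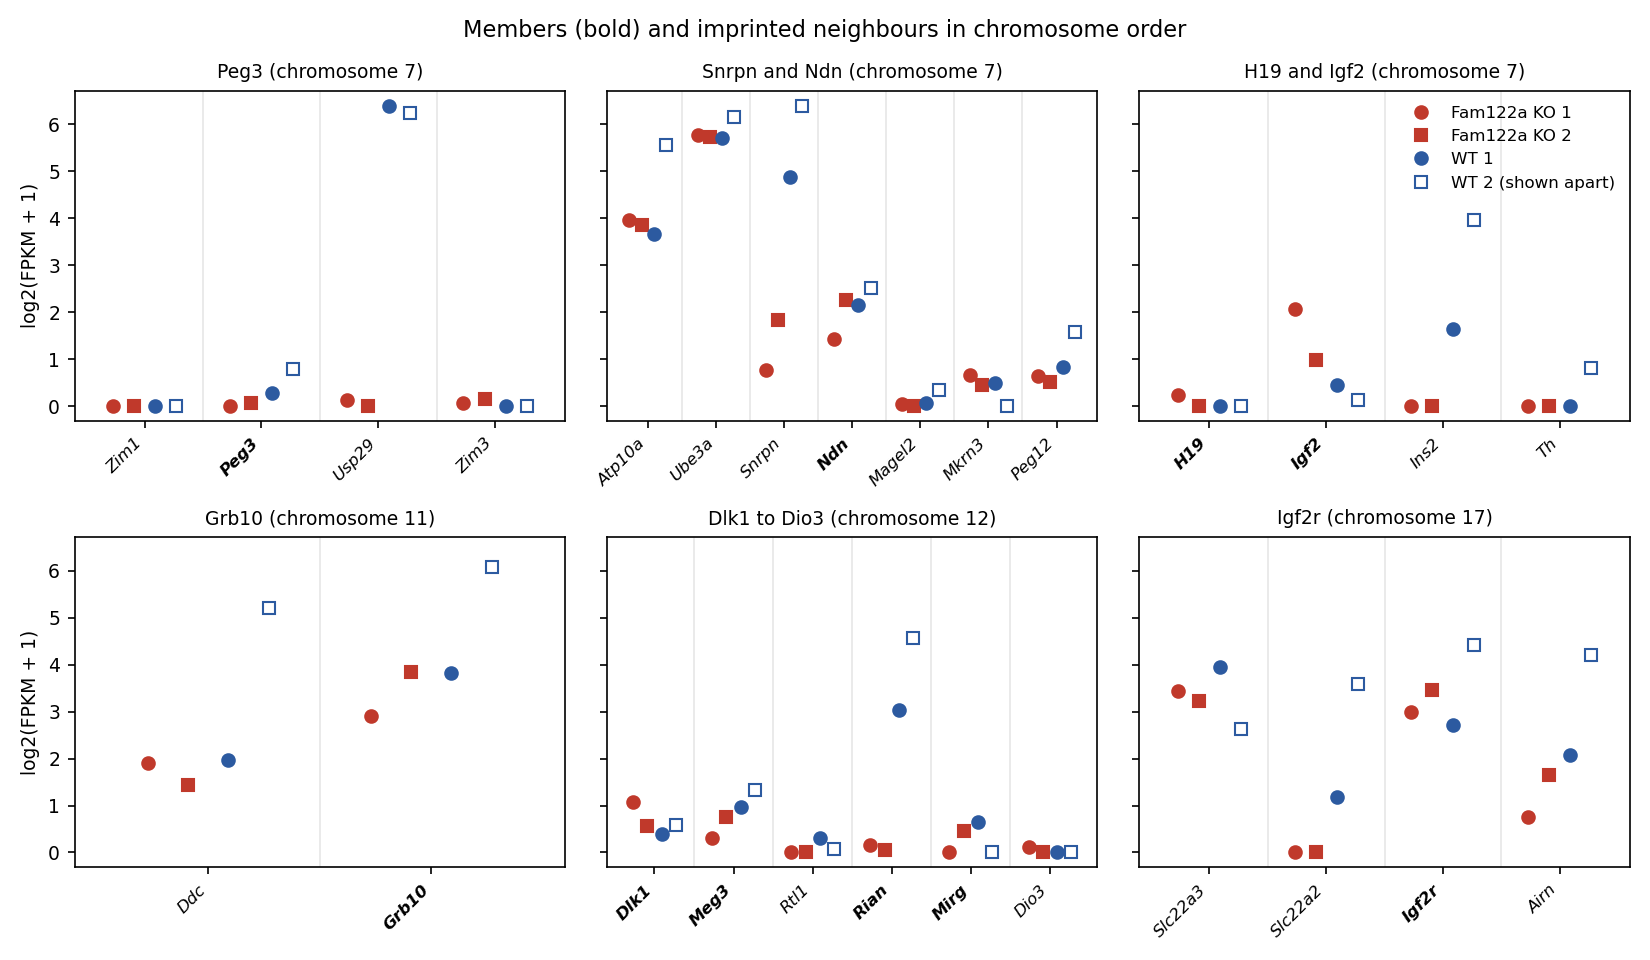
Levels as log2(FPKM + 1) on the vertical axis for the imprinted genes (bold) and imprinted neighbours, in chromosome order in 6 domains, 1 point per library. Usp29, Snrpn and Rian read high in WT and low in KO, while Zim1, Magel2 and Dio3 of the same domains are at or near 0 in every library.

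Of the 49 other imprinted genes, 27 were tested, 3 fell and 0 rose, beside 9.37% lower and 0.454% higher among all genes tested. The median log2 difference was -0.45, against -0.0021 over all 15867 genes tested. It was below 0 for 19 of the 27 and for 7953 of all genes tested. The 3 that fell met the filter through WT replicate 1 alone, so they had to differ. With all 4 libraries limma called none of them (adjusted p = 0.309 to 0.378), as it called 0 of 20434 genes. Usp29 fell by 6.34 (SE 0.17, limma adjusted p = 0.0174). Asb4, a SOCS box gene, was at 0.55 and 0.37 FPKM in KO, against 5.69 FPKM in WT replicate 1 and 76.4 FPKM in WT replicate 2, and fell by 2.20 (SE 0.13, limma adjusted p = 0.0411). Rasgrf1, a RAS exchange factor gene, was at 0.04 FPKM in both KO libraries, 3.19 FPKM in WT replicate 1 and 72.3 FPKM in WT replicate 2, and fell by 2.01 (SE 0.04, limma adjusted p = 0.0142). All 3 have spans of 10.6 to 13.1 times their exonic length, and Asb4 and Rasgrf1 had their highest values in WT replicate 2. The 6 tested genes of short span had a median of 0.17, the 13 of middle span -0.51 and the 8 of long span -0.75. Tssc4 (0.92), Sfmbt2 (-1.64) and Ppp1r9a (-2.39) came next by p and did not pass (limma adjusted p = 0.0654 to 0.0741).

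**Figure D4:**
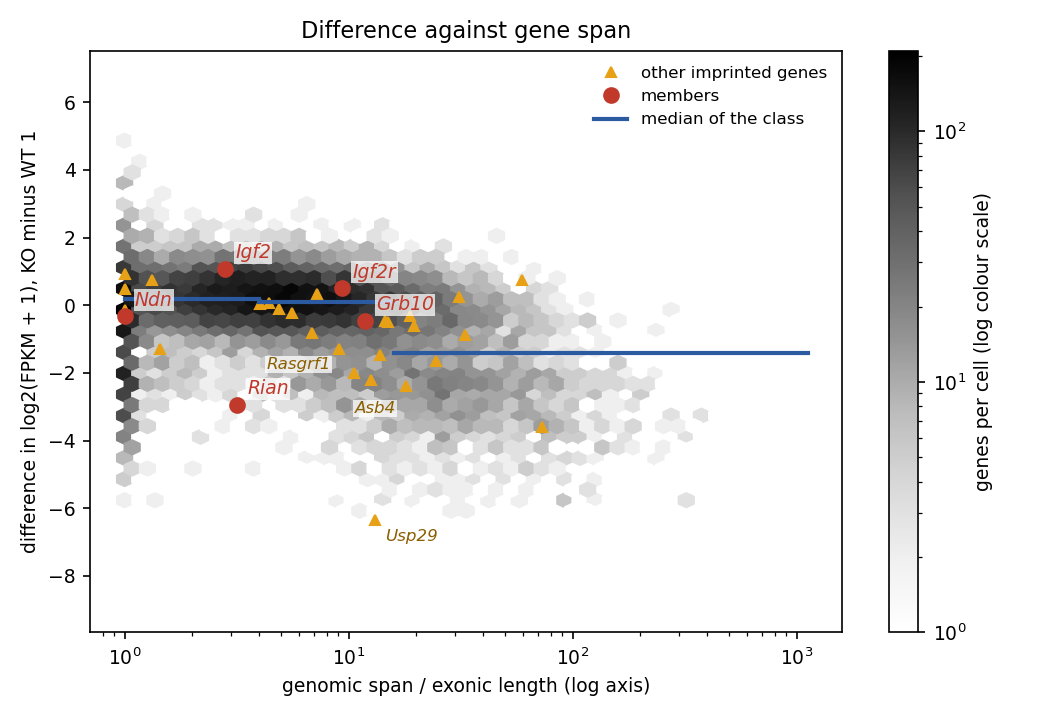
Difference in log2(FPKM + 1), KO minus WT replicate 1, against the ratio of genomic span to exonic length on a log axis, for all genes tested (grey cells, darker for more genes). Red points are the 5 imprinted growth regulators tested, yellow triangles other imprinted genes, and blue lines the medians of 3 span classes, 0.17, 0.08 and -1.40 from short to long. Rian lies at -2.94 in the short class and Usp29 at -6.34 in the middle class.

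In the list of IGF ligands, receptors, binding proteins and adaptors, 16 of 24 were tested, 1 rose, 1 fell and the median was 0.08, or -0.23 after scaling to short-span coding genes. Irs1, which encodes an adaptor of the insulin and IGF receptors, was at 0.27 and 0.31 FPKM in KO, 5.93 FPKM in WT replicate 1 and 52.7 FPKM in WT replicate 2, and fell by 2.43 (SE 0.08, limma adjusted p = 0.0202). It met the filter through WT replicate 1 alone, so it had to differ. With all 4 libraries Irs1 was not called (limma adjusted p = 0.340), and neither was any other gene. Its relative Irs2 was at 15.2 and 17.4 FPKM in KO and 6.62 FPKM in WT replicate 1 and did not pass (1.18, SE 0.19, limma adjusted p = 0.109). Grb7, an adaptor gene of the same family as Grb10, was at 3.75 and 3.91 FPKM in KO, 0.33 FPKM in WT replicate 1 and 5.22 FPKM in WT replicate 2. It rose relative to WT replicate 1 (1.86, SE 0.11, limma adjusted p = 0.0411), but it met the filter through KO alone, WT replicate 2 lay above both KO libraries, and with all 4 libraries it was not called (limma adjusted p = 0.643). Shc1, Igf2bp2, Sos1 and the rest of the 16 did not pass. For scale, 0.454% of all genes tested were called higher and 9.37% lower. Igf1r, the receptor for IGF2, was at 14.0 and 15.8 FPKM in KO, 17.1 FPKM in WT replicate 1 and 73.8 FPKM in WT replicate 2, and did not pass (-0.19, SE 0.17, limma adjusted p = 0.504).

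Of 27 PI3K, AKT, mTOR and FOXO genes, 26 were tested, 1 rose and 0 fell. These calls stand beside 0.454% higher and 9.37% lower among all genes tested. The median was 0.58 and 18 lay above 0 (69.2%, beside 49.9% of all genes tested). Inpp5d, which encodes the phosphatase SHIP1 that opposes PI3K, was at 137 and 136 FPKM in KO, 50.8 FPKM in WT replicate 1 and 53.5 FPKM in WT replicate 2. It rose by 1.41 (SE 0.07, limma adjusted p = 0.0340), and with all 4 libraries it was not called (limma adjusted p = 0.491). Akt1, a central kinase of the pathway, was at 162 and 167 FPKM in KO and 86.8 FPKM in WT replicate 1 (0.91, SE 0.08) and did not pass (limma adjusted p = 0.0600). Pik3cd (1.12), Pik3cb (-1.09) and Tsc2 (1.20) did not pass either (limma adjusted p = 0.0640 to 0.0995).

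Of 21 genes that write or keep imprints, 19 were tested and 0 were called by limma in either direction, with 6 higher and 2 lower at an unadjusted p under 0.05, beside 2091 higher and 3209 lower of all 15867 genes tested. The median was 0.64 and 15 of 19 lay above 0 (78.9%, beside 49.9% of all genes tested). Ctcf, which encodes the insulator protein that separates Igf2 from its enhancers on the maternal copy, was at 98.7 and 120 FPKM in KO and 43.5 FPKM in WT replicate 1 (1.31, SE 0.19, limma adjusted p = 0.0984). Ehmt2 (1.20), Arid4a (-0.68), Tet1 (-1.74), Tet3 (1.37) and Arid4b (0.64) did not pass either. Ctcf was at 1.22 FPKM in WT replicate 2. Of 11 NOTCH receptors and DLK1-related ligands, 5 were tested and 0 were called by limma, 1 of them being higher at an unadjusted p under 0.05. This was the ligand gene Jag2, at 4.74 and 6.31 FPKM in KO, 0.58 FPKM in WT replicate 1 and 0.54 FPKM in WT replicate 2 (2.04, SE 0.26, limma adjusted p = 0.0882). Jag2 met the filter through KO alone, so it had to differ.

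**Figure D5:**
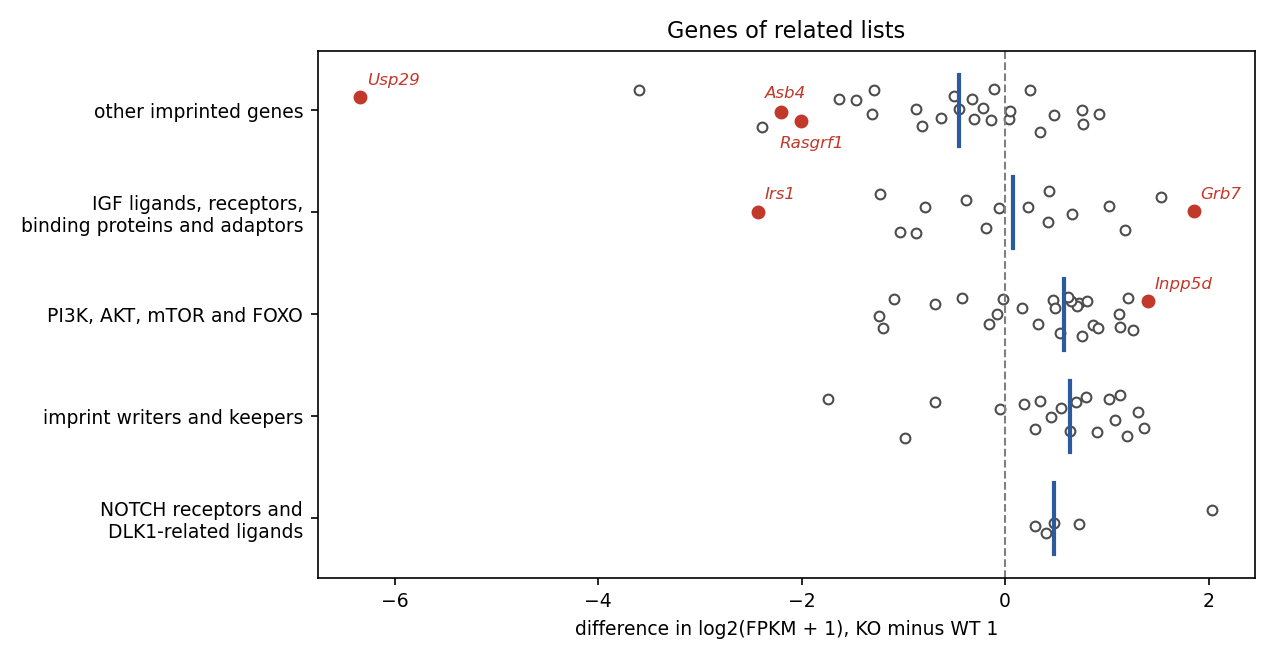
Difference in log2(FPKM + 1), KO minus WT replicate 1, for the tested genes of 5 related lists, 1 point per gene. Red filled points passed an adjusted p of 0.05, blue bars are list medians (-0.45, 0.08, 0.58, 0.64 and 0.48 from top to bottom) and the dashed line is the median of all genes tested. Usp29, Asb4, Rasgrf1 and Irs1 lie on the lower side and Grb7 and Inpp5d on the higher side.

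The genes most like each well expressed member were sought over the 4 libraries by the smallest distance between log2(FPKM + 1) values. For Rian the nearest were Mark1, Slc6a4 and Lrrn1, at distances of 0.22 to 0.32. Mark1 was at 0.04 and 0 FPKM in KO, 8.40 FPKM in WT replicate 1 and 23.0 FPKM in WT replicate 2. For Grb10 the nearest were Nxn, Tnrc6c and Dhx57 (0.31 to 0.49), and for Igf2r they were Armh3, Kif17 and St3gal3 (0.15 to 0.36). With 4 libraries these distances are a description.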

How the data were processed

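RNA had been extracted from sorted LT-HSCs and made into libraries with the SMART-Seq v4 kit, which does not mark strand, per the labels' protocols. Each deposited file lists 87703 features, without a header. The deposited values were taken as FPKM, which the authors do not state: low values of single-exon genes with 1 transcript fell on steps of whole fragments once 220 to 250 bases were taken off the gene length (81.6% to 89.9% within 0.1 of a whole number). STAR 2.7.1a, HISAT2 2.1.0, bcl2fastq and the builds mm10 and GRCm38.p5 appear in the submitters' processing notes, with no role stated. Which tool made the values is not given in the sources used here. Loci with MSTRG identifiers (35791) name no gene and stayed out of the tests.

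Symbols, coordinates and exonic lengths came from GENCODE M21 (GRCm38). The test was limma 3.58.1 in R 4.3.3, fitted to log2(FPKM + 1) with a trend on mean level. On that scale the change of a low gene is understated. The fit was checked on simulated data. Fragment numbers are estimates from the implied depth and cover counting error only. Named genes were all members, called genes of each list and up to 6 with the smallest p. A gene of the PI3K list that this rule names is not reported here. Igf1r and the imprinted neighbours of members were added to these. The members and lists were chosen with earlier results of these data known. Alternatives covered the libraries used, replicate block, filter, pseudocount, scaling, trend, threshold and span. Figures were drawn with matplotlib.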

Additional observations from a re-analysis of the deposited data

Results flagged for a closer look

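There were 3 members that stood out in WT replicate 2, a library outside the main comparison, because they were at 1 FPKM or more and at least 2 times their level in WT replicate 1. Grb10 was at 66.45 FPKM there, Rian at 22.56 FPKM and Igf2r at 20.31 FPKM.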

How the results depend on the processing

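Depth limits what can be said of H19, Peg3, Mirg and Rian in KO, where few fragments stand behind each value. Counts of genes higher and lower in KO were 72 and 1487, with 1 member called. With all 4 libraries limma called 0 and 0 genes and 0 members, with 118 higher and 2364 lower at an unadjusted p under 0.05. With the replicate number as a block it also called 0, 0 and 0, with 191 and 1932 at an unadjusted p under 0.05. Deviations of same-numbered libraries from their group means correlated at 0.04. With 2 libraries per group and WT replicate 2 so unlike the rest, this value cannot tell whether the numbers pair the samples. Without WT replicate 1 the counts were 7103 and 8850 of 20739 genes tested, with 1 member, Rian. With so many genes called, this call does not set Rian apart. The filter of 1 FPKM in 2 libraries gave 25 and 196 of 13848 genes and 0 members, since Rian was no longer tested. No filter gave 761 and 9265 of 30258 genes. A pseudocount of 0.1 gave 29 and 672 and 0 members. Higher calls were 113 after scaling to the Ensembl total, 47 after scaling to short-span coding genes and 28 without the intensity trend, and lower calls were 878 after quantile normalization. At an adjusted p of 0.1 the counts were 809 and 2392, and in short-span genes 11 and 333. The 3 scalings moved the median of all genes to 0.21, -0.29 and 0.19, in the order Ensembl total, short-span coding genes and quantile normalization.

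Rian stayed lower in all 14 alternatives (-5.42 to -2.41). Igf2 and Dlk1 stayed higher in all 14 (0.54 to 2.03 and 0.18 to 1.03), both lowest without KO replicate 1. Igf2r reversed to -0.34 with all 4 libraries, with and without the block. Without WT replicate 1, which sets KO against WT replicate 2 alone, Igf2r was at -1.19. Against WT replicate 1 it was at 0.74 without KO replicate 1 and 0.28 without KO replicate 2. Ndn reversed to 0.48 after quantile normalization. The causes were not tested. Leaving out a KO library leaves 1 against 1, a difference with no test. H19, Meg3 and Peg3 kept their sign in 13 of 14, and Mirg and Ndn in 12. Grb10 kept it in 12 of 13, with -2.71 against WT replicate 2 alone (without WT replicate 1) and 0.01 without KO replicate 1. The median of the IGF list kept its sign in 9 of 14 (-2.24 to 1.18), with -0.23 after scaling to short-span coding genes, and that of the other imprinted genes to 0.17 in short-span genes. The medians of the PI3K, imprint and NOTCH lists stayed above 0 in all 14.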

Other observations

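The Kcnq1 domain of chromosome 7, whose genes are named here after their values were seen, holds Cdkn1c, the gene of the cell cycle inhibitor p57. Cdkn1c was at 10.5 FPKM in both KO libraries, 5.79 FPKM in WT replicate 1 and 0 in WT replicate 2 (log2 difference from WT replicate 1 of 0.76, SE 0.18, limma adjusted p = 0.149). Tssc4 was at 63.6 and 65.8 FPKM in KO, 33.8 FPKM in WT replicate 1 and 0.35 FPKM in WT replicate 2. Phlda2, a growth restraining gene of the placenta, was at 1.73 and 2.31 FPKM in KO, 6.42 FPKM in WT replicate 1 and 0 in WT replicate 2 (-1.30, SE 0.22, limma adjusted p = 0.114). Osbpl5 was at 8.35 and 8.33 FPKM in KO, 24.8 FPKM in WT replicate 1 and 0.11 FPKM in WT replicate 2. None of these 4 genes passed, and no difference between them was tested. Kcnq1, the ion channel gene of the domain, was at 0.02 FPKM in both KO libraries, 1.48 FPKM in WT replicate 1 and 54.5 FPKM in WT replicate 2. Slc22a18 was at 4.88 and 3.29 FPKM in KO, 6.13 FPKM in WT replicate 1 and 0.34 FPKM in WT replicate 2 (limma adjusted p = 0.388), and Ascl2 at 0.76 and 0.74 FPKM in KO, 0.86 FPKM in WT replicate 1 and 0 in WT replicate 2. Kcnq1ot1, the noncoding RNA that silences the domain on the paternal copy in mouse, was at 0.61 and 0.72 FPKM in KO, 0.84 FPKM in WT replicate 1 and 2.12 FPKM in WT replicate 2.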
